A study of Mus musculus with 20 samples.

Results

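The genes described are those of the mouse major histocompatibility complex (MHC) and of antigen processing. They are the 46 genes, of 30142 named on the array, whose symbol starts with H2- or that belong to a list of 9: B2m, Tap1, Tap2, Tapbp, Psmb8, Psmb9, Psmb10, Erap1 and Ciita. Of the 46, 24 were class I genes, 12 class II genes and 9 the genes of that list, called processing genes below. The remaining one, H2-Ke6, is named for its place in the region and codes for a dehydrogenase, not for an MHC protein. Each of the 46 had 1 row in the value table, so no choice between rows was needed. Another 9 rows named an H2 gene together with a further gene, among them rows for H2-Q7, H2-T22 and H2-T23, and these were not used.

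The series holds 20 FVB/N mouse tissue samples, whose RNA was extracted with the miRNeasy FFPE kit, made for formalin-fixed and paraffin-embedded material, and hybridised to Affymetrix whole-transcript arrays. All mice, controls included, carried floxed alleles of several tumor suppressor genes, Rb f/f among them, and were p107-/-. The groups were treated bladder (n = 3), treated metastasis (n = 1), metastasis (n = 4), bladder tumor (n = 7) and control bladder (n = 5). Bladder tumors and treated bladders came from bladders given Adeno-Cre, a virus that brings Cre recombinase into the cells it enters, where Cre removes floxed sequence. Control bladders came from mice of the same genotype, with no inoculation given in their labels. Treated mice had received CM272 daily at 5 mg/kg for 30 days; this compound inhibits both G9a, a histone methyltransferase, and DNA methyltransferases. CDDP (cisplatin), which crosslinks DNA, was given weekly at 6 mg/kg. The sources used here give neither the organ of each metastasis, nor the age of the mice, nor whether each sample came from another animal. The p-values therefore measure only the spread among these arrays, part of which may be technical.

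MHC class I molecules stand on nearly all nucleated cells and show peptides from inside the cell to CD8 T cells. Their heavy chains, H2-K1 and H2-D1 in these data, pair with beta-2 microglobulin, the product of B2m. The immunoproteasome subunits Psmb8, Psmb9 and Psmb10 help to cut the peptides, the Tap1-Tap2 transporter carries them into the endoplasmic reticulum, Erap1 trims them there and Tapbp (tapasin) helps to load them. MHC class II molecules are held mainly by macrophages, dendritic cells and B cells and show peptides from engulfed material to CD4 T cells. H2-Aa with H2-Ab1 forms the class II molecule A, the H2-DM genes code for the loading factor, and H2-Oa and H2-Ob for its inhibitor. Ciita is the master activator of class II transcription, and interferon gamma raises both classes. Loss of class I from tumor cells is a known route of escape from T cells, and inhibitors of DNA methylation are known to raise class I in many tumor lines.

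Class I and class II genes share a promoter module with an X box and a Y box. Promoters are shown so that matches to letters of this module can be looked for in class I genes, B2m, class II genes and Tap1. They are the 250 bases before each gene's start, 5′ to 3′, from RefSeq on GRCm38.p6, and 33 of the 46 members had one. Capitals mark 4 motifs, searched on both strands. They are CCAAT (core of the Y box), TGACG (part of the X2 box) and GAANNGAAA (a type bound by interferon regulatory factors, IRF). The last is the kappa B type, the palindrome-like element bound by NF-kappa B. The first set holds the class I genes with the widest spread over the arrays, and B2m.
H2-K1 (chr17:34000348-34000597, minus strand): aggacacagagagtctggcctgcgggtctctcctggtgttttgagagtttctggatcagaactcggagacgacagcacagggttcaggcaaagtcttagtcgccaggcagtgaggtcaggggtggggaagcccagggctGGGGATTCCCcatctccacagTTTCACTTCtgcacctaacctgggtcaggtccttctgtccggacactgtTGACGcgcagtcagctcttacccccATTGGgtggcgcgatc
H2-D1 (chr17:35262844-35263093, plus strand): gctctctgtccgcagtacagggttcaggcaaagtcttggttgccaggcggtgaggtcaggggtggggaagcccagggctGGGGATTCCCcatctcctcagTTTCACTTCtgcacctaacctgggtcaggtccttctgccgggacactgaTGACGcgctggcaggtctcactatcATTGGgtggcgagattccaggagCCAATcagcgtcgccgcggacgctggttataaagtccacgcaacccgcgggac
H2-Q4 (chr17:35379367-35379616, plus strand): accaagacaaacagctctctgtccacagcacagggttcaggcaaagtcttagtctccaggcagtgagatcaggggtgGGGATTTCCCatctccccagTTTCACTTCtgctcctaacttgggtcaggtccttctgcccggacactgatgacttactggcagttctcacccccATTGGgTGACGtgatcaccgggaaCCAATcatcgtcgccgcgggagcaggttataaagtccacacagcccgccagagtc
B2m (chr2:122147437-122147686, plus strand): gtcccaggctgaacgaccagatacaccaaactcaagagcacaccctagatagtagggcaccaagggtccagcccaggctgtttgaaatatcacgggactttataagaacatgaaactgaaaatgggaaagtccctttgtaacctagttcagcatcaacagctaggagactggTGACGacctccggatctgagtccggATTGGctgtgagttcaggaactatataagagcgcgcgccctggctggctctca
The second set holds a class II gene of each chain type and the transporter gene Tap1; H2-Eb1 has no TGACG match.
H2-Aa (chr17:34287824-34288073, minus strand): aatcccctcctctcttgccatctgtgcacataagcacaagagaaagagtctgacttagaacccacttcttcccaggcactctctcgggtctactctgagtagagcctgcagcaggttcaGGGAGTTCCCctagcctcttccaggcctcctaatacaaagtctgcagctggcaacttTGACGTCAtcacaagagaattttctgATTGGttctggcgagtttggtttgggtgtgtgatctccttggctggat
H2-Eb1 (chr17:34305617-34305866, plus strand): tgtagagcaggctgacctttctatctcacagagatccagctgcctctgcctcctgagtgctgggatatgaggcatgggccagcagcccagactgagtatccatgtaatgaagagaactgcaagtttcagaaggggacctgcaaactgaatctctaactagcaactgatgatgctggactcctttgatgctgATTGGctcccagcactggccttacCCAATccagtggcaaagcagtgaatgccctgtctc
Tap1 (chr17:34187306-34187555, plus strand): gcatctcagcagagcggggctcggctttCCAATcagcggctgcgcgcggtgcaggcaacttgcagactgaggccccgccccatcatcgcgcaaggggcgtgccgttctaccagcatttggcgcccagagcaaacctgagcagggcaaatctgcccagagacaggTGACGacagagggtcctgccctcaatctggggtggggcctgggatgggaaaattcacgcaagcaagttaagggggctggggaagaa

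The H2-K1, H2-D1 and H2-Q4 promoters hold a kappa B type and an IRF type match close together, and TGACG and CCAAT nearer to the gene than these. In H2-D1 these matches begin 171, 150, 101 and 76 bases before the gene's start, with a second CCAAT core at 53 bases. TGACG stands farther from the gene than every CCAAT core in H2-K1 and H2-D1. The order differs in H2-Q4, where TGACG begins 73 bases before the start and a CCAAT core 79 bases before it. The H2-Q4 match is therefore not at the place of the TGACG of H2-D1. The class II gene H2-Aa has the palindrome of 2 overlapping TGACG matches, which begin 74 and 71 bases before the start. Its Y box core is at 48 bases. In Tap1, CCAAT begins 222 and TGACG 86 bases before the start, the reverse of the order in H2-Aa, and the module is not seen there. Of all 32851 promoter windows of this length, 33.8% hold CCAAT, against 15 of 17 class I, 7 of 8 class II and 4 of 7 processing members. The IRF type was found in 6 of 17 class I members and 6.31% of all windows. It was found in 0 of 8 class II and 0 of 7 processing members. These counts hold for the letters GAANNGAAA alone. The B2m promoter shown holds gaaactgaaa, with 1 more base between GAA and GAAA, which the search did not count. The 0 of 7 therefore does not show that processing promoters lack an IRF element. TGACG was found in 9 of 17 class I, 1 of 8 class II and 3 of 7 processing members, against 17.8% of all windows. The kappa B type stood in 3 of 17, 2 of 8 and 0 of 7, against 1.53%. A match is a run of letters and no measured site. Tap1 and Psmb9 lie head to head, and their 300-base windows, which reach 50 bases past the start, overlap by 275 bases on opposite strands. FVB/N mice carry the q haplotype of the MHC and the reference genome the b haplotype, so the letters shown, and the array's probes, may differ from the alleles in these mice. Whether that moved a value was not tested.

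Values are the authors' deposited log2 values, on which a difference of 1 is 2-fold. Levels of different genes cannot be set against each other directly on an array. As a rough guide only, each row was set against genes that bladder should largely not express. A gene that does not stand above them may still be expressed. The 1771 odorant, pheromone and taste receptor genes on the array had gene means with a 95th percentile of 5.67. Above it lay the means of 8 class I members (H2-K1, H2-D1, H2-K2, H2-Q4, H2-Q10, H2-T10, H2-T24 and H2-M2), 4 class II members (H2-Aa, H2-Ab1, H2-DMb1 and H2-DMb2) and 6 processing members (B2m, Erap1, Psmb8, Psmb10, Tap1 and Tapbp). The other 16 class I, 8 class II and 3 processing members did not stand above this level. They include the H2-M10 genes, which in mice are known from the vomeronasal organ, the E beta gene H2-Eb1, Psmb9, Tap2 and Ciita.

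A division of the arrays that runs across the untreated groups touches every result. For 8 arrays (metastasis 3 and 4, bladder tumor 3, 4 and 5, control bladder 4, 5 and 6), the deviations from the gene means had a correlation of at most 0.139 with those of any other array, taken over genes. For each of the remaining 12 the best match reached 0.328 to 0.609. The 8 are called near-mean arrays here. No treated array is among them. In the treated bladder comparisons, treatment and this division therefore cannot be fully told apart. Array medians ran from 5.07 to 5.42. The urothelial markers, 8 genes such as the uroplakins, had a mean level of 6.93 to 8.16 in treated bladder, 5.69 in the treated metastasis, 5.51 to 6.98 in metastasis, 5.26 to 9.998 in bladder tumor and 6.92 to 8.70 in control bladder. Of 6 smooth muscle markers, 0 had a higher mean in metastasis than in control bladder (median -1.84), against 47.1% of all genes. In treated bladder 6 had a higher mean than in tumor (median 0.70), against 49.4% of all genes. Single arrays carry much of this. The mean level of the 6 was 7.16, 9.33 and 6.68 in treated bladder and 5.49 to 6.97 in metastasis. It was 5.48 to 7.03 in bladder tumor apart from 10.54 in bladder tumor 7. Control bladder gave 9.35, 9.30, 7.02, 7.02 and 7.06. For the urothelial markers, bladder tumor 6, with 5.26, stood below every metastasis, and bladder tumor 7, with 9.998, above every control bladder. Control bladder 1 and 2 had Xist values of 10.8 and 10.9, far above the 4.47 to 6.44 of every other array.

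The comparisons gave no call for any member. limma called 0 of 30142 genes, 0%, in each of the 5 comparisons at a Benjamini-Hochberg adjusted p under 0.05. At an unadjusted p under 0.05 it gave 147 genes (0.488%) in treated bladder minus tumor, 230 (0.763%) in treated bladder minus control, 1810 (6%) in metastasis minus tumor, 2146 (7.12%) in metastasis minus control and 1291 (4.28%) in tumor minus control. Of the 46 members this unadjusted list held 0, 0, 2, 1 and 0 in the same order. These shares are near or below the background. On simulated data with 30142 genes the same fit found 68% of genes given a log2 change of 1 in treated bladder minus tumor and 67% in metastasis minus control. Whether these shares hold for the members, or for arrays that deviate together as some do here, was not tested. In treated bladder minus tumor the SE was 0.34 for H2-K1, 0.36 for H2-D1 and 1.12 for B2m.

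**Figure D1:**
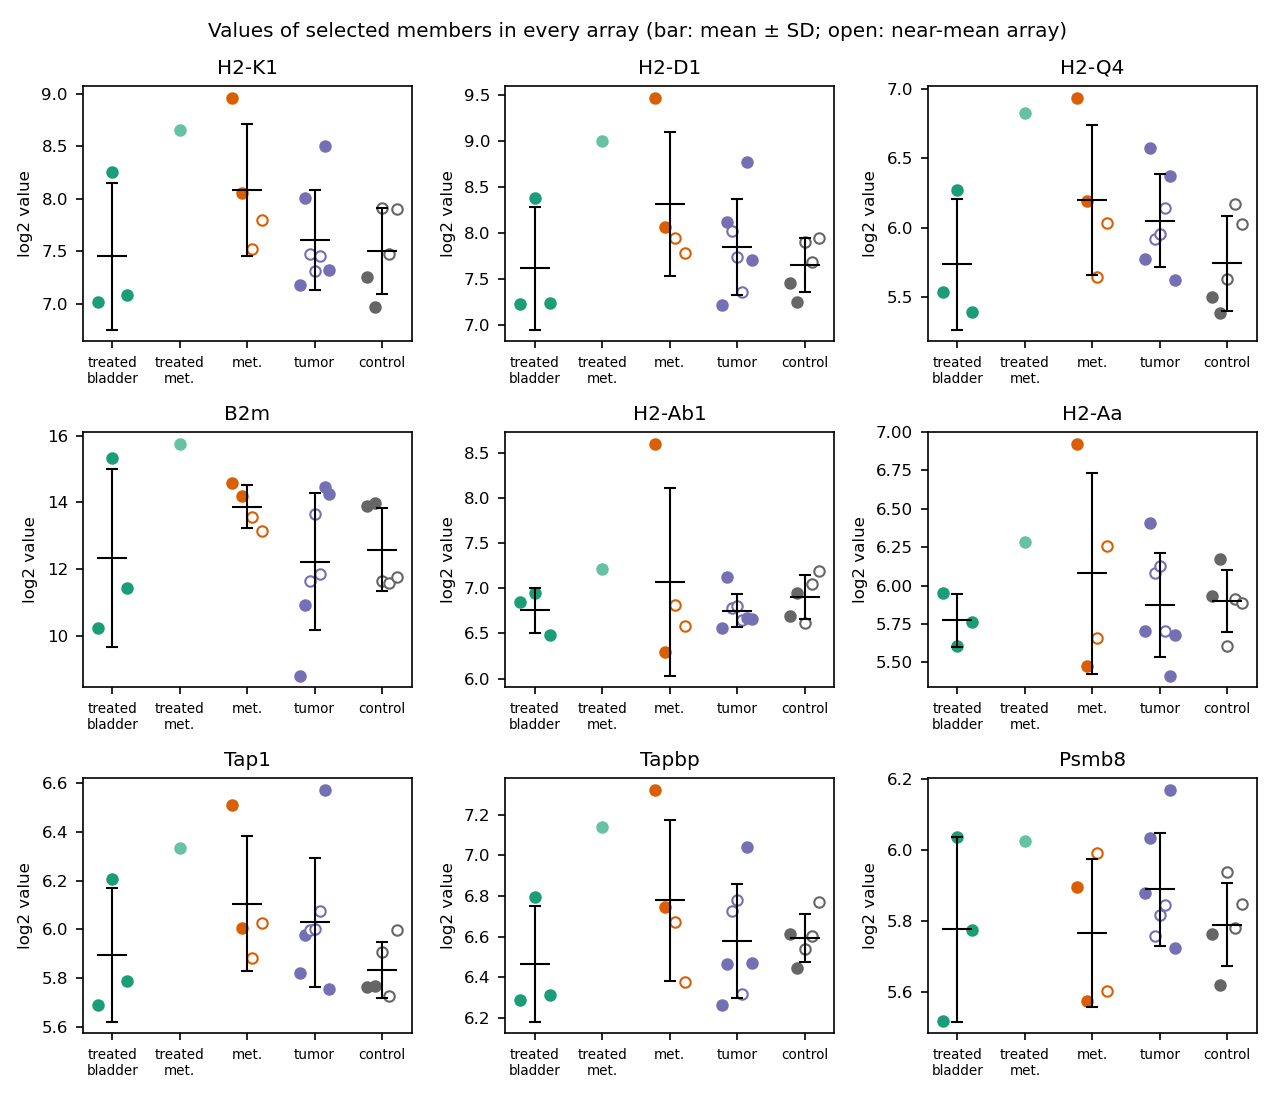
Deposited log2 values (vertical axis) of 9 members in every array, by group (horizontal axis), each panel on its own scale. Points are arrays, open points near-mean arrays, and bars the mean and SD of groups with over 1 array. Metastasis 1, the treated metastasis and bladder tumor 6 stand high for H2-K1, H2-D1 and Tap1, and only metastasis 1 of these stands far out for H2-Ab1, at 8.60.

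The classical class I heavy chains differed between arrays of a group more than between groups. H2-K1 read 7.02, 8.26 and 7.08 in treated bladder and 8.66 in the treated metastasis. It read 8.96, 8.06, 7.52 and 7.80 in metastasis, and 7.18, 7.46 and 8.51 (lowest, median, highest) in bladder tumor. Control bladder gave 7.25, 6.97, 7.92, 7.47 and 7.90. All groups overlapped: treated bladder 2 lay above every control, and treated bladder 1 and 3 below all but 1 of them.

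H2-K1 averaged 7.45 ± 0.70 in treated bladder (SD, n = 3), 8.09 ± 0.63 in metastasis (n = 4), 7.61 ± 0.48 in bladder tumor (n = 7) and 7.50 ± 0.41 in control bladder (n = 5). Treated bladder minus tumor was -0.16 (SE 0.34), with a 95% interval from -0.87 to 0.56 and a limma adjusted p of 1. The interval reaches well to both sides of 0, so the data show neither a difference nor its absence. Without treated bladder 2 it was -0.56, and without treated bladder 1 it was 0.06. H2-K1 differed by 0.58 in metastasis minus control (SE 0.33, interval -0.11 to 1.28, limma adjusted p = 0.735), and by 0.289 without metastasis 1. Tumor minus control was 0.11 (SE 0.29), with a limma adjusted p of 0.999.

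H2-D1, the second classical heavy chain, followed H2-K1. It read 7.22, 8.38 and 7.23 in treated bladder, 9.002 in the treated metastasis, and 9.48, 8.06, 7.94 and 7.78 in metastasis. Bladder tumor gave 7.21, 7.73 and 8.78 (lowest, median, highest) and control bladder 7.46, 7.25, 7.90, 7.69 and 7.95. The same 4 arrays were highest for both genes: metastasis 1, the treated metastasis, bladder tumor 6 and treated bladder 2. Its difference was 0.67 in metastasis minus control (SE 0.35, interval -0.07 to 1.40, limma adjusted p = 0.723) and -0.23 in treated bladder minus tumor (SE 0.36, interval -0.99 to 0.52, limma adjusted p = 1). Without metastasis 1, H2-D1 differed by 0.279 in metastasis minus control and by 0.081 in metastasis minus tumor. The platform row for H2-D1 carries a second gene ID, and class I genes are near-identical over long stretches, so RNA of one may be read by the probes of another.

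Among class I members in the Q and T regions, H2-Q4 had the widest spread. It read 5.54, 6.27 and 5.39 in treated bladder, 6.83 in the treated metastasis, and 6.94, 6.19, 5.64 and 6.03 in metastasis. Bladder tumor gave 5.62, 5.95 and 6.58 (lowest, median, highest), and control bladder 5.50, 5.38, 5.63, 6.17 and 6.03. H2-Q4 differed by 0.46 (SE 0.26) in metastasis minus control and by 0.31 (SE 0.22) in tumor minus control, with limma adjusted p of 0.733 and 0.999. The first of these was 0.212 without metastasis 1. Treated bladder minus tumor was -0.31 (SE 0.26, interval -0.87 to 0.24), the lowest of the 24 class I differences in that comparison. H2-M3, which presents N-formyl peptides, read 5.05 to 5.43 in treated bladder, 5.06 to 5.71 in metastasis, 5.20 to 5.83 in tumor and 5.19 to 5.50 in control bladder.

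H2-K2, a pseudogene next to H2-K1, was the one member with groups that did not overlap in a comparison. Its 4 highest arrays were those of H2-K1, and whether the row reads H2-K1 RNA was not tested. It read 6.60, 6.21, 6.08 and 6.28 in metastasis, against 5.79, 5.77, 5.90, 5.99 and 6.01 in control bladder. Metastasis minus control was 0.40 (SE 0.16, interval 0.06 to 0.73), with an unadjusted p of 0.0225 and a limma adjusted p of 0.676. The gap between the groups, 6.01 to 6.08, is narrow, and the share of all genes whose groups did not overlap was 2.95% in that comparison. In the other 4, with 0 of 46 members, it was 0.166% (treated bladder minus tumor), 1.19% (treated bladder minus control), 0.514% (metastasis minus tumor) and 0.179% (tumor minus control). It read 5.82, 6.37 and 5.70 in treated bladder and 6.51 in the treated metastasis.

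By class, the group differences were small. Of 24 class I members, 8 had a higher mean in treated bladder than in tumor, with a median difference of -0.05, against 49.4% higher and a median of -0.002 over all genes. In treated bladder minus control 11 of 24 were higher (median -0.01), against 52.8%, and in metastasis minus tumor 11 of 24 (median -0.04), against 43.8%. In metastasis minus control 12 of 24 were higher, with a median of 0.01 and a range from -0.30 (H2-M1) to 0.67 (H2-D1), against 47.1% and -0.01. In tumor minus control 16 of 24 were higher (median 0.04), against 53% and 0.01. The 8 class I members above the chemosensory level had a median of 0.36 in metastasis minus control, 0.18 in metastasis minus tumor, -0.11 in treated bladder minus tumor and 0.11 in tumor minus control. Positive differences were seen in 6 of these 8 in both metastasis comparisons, in 1 in treated bladder minus tumor and in all 8 in tumor minus control. The 16 dimmer members had medians of -0.025, -0.055, -0.015 and -0.003 in the same 4 comparisons. H2-M9 differed by 0.20 in treated bladder minus control and by 0.26 in tumor minus control, and H2-M10.5 by 0.21 in treated bladder minus tumor. H2-Q3 had -0.21 in treated bladder minus control. None passed.

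**Figure D2:**
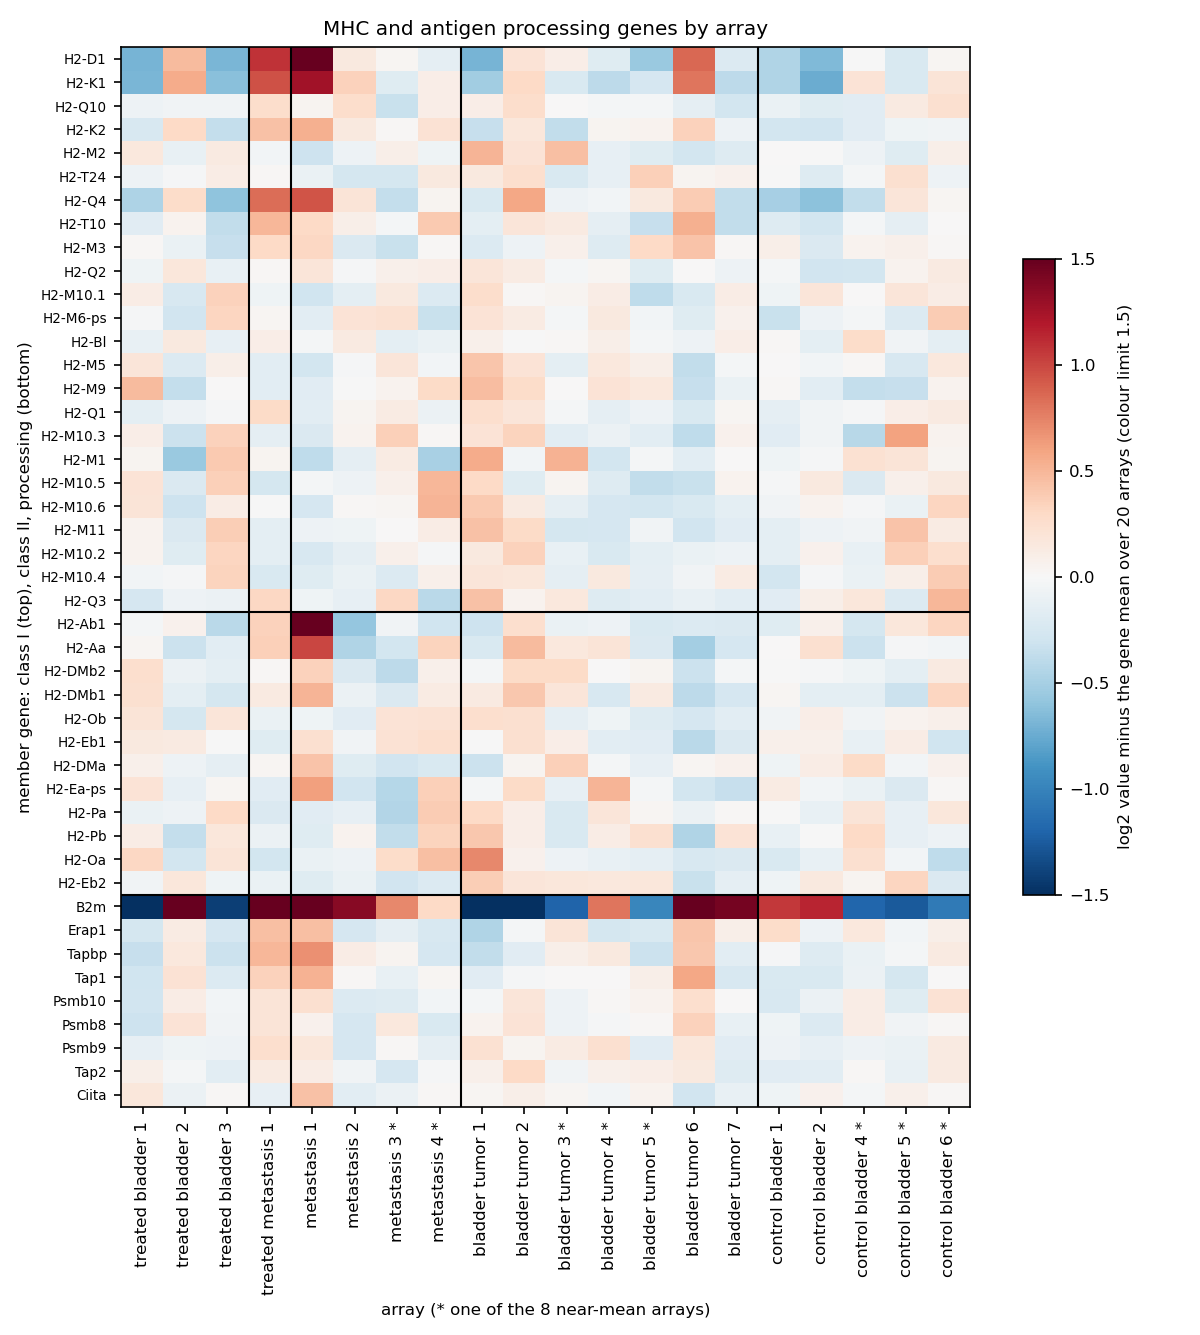
Deviation of each class I, class II and processing member (rows, ordered by mean within a class) from its mean over 20 arrays, in log2 units, for each array (columns, by group). Red is above and blue below the mean; deviations past 1.5 have the end colour, and asterisks mark near-mean arrays. The dim class I rows are mostly red in bladder tumor 1, where the bright class I rows H2-K1 and H2-D1 are blue.

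The 8 bright and the 16 dim class I members lay on opposite sides of their means in several arrays. Bladder tumor 6 had 6 of the 8 bright members above their mean but 2 of the 16 dim ones, and metastasis 1 likewise 6 and 2. Bladder tumor 1 had 3 of 8 and 15 of 16, treated bladder 3 had 2 and 11, and treated bladder 1 had 1 and 10. Control bladder 6 had most of both, 6 and 15. The mean level of the chemosensory receptor genes was 5.26 in bladder tumor 1, 5.16 in treated bladder 3 and 5.11 in treated bladder 1, the highest of the 20 arrays. It was 4.65 in bladder tumor 6, 4.67 in metastasis 1 and 4.63 in the treated metastasis, the lowest, and next 4.78 in treated bladder 2. These were also the highest arrays for H2-K1 and H2-D1. Actb, a gene of the cytoskeleton used as a loading control, read 8.05 in bladder tumor 1 and 10.58 in bladder tumor 6. The part of these levels in the class I values was not tested.

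The A chain genes of class II had 1 array far from the rest. H2-Ab1, the A beta chain, read 6.84, 6.94 and 6.48 in treated bladder, 7.22 in the treated metastasis, and 8.60, 6.29, 6.82 and 6.58 in metastasis. Bladder tumor gave 6.56, 6.67 and 7.13 (lowest, median, highest), and control bladder 6.69, 6.95, 6.61, 7.05 and 7.20. The 20-array maximum and minimum were both metastases, number 1 and number 2. Metastasis minus tumor was 0.32 (SE 0.30, limma adjusted p = 0.882) with all arrays, and -0.19 without metastasis 1. Against control bladder the difference of metastasis was 0.17 (SE 0.32, limma adjusted p = 0.936), and -0.34 without metastasis 1.

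H2-Aa, the A alpha chain, read 5.95, 5.61 and 5.76 in treated bladder, 6.28 in the treated metastasis, and 6.92, 5.48, 5.66 and 6.26 in metastasis. Bladder tumor gave 5.41, 5.71 and 6.41 (lowest, median, highest) and control bladder 5.93, 6.17, 5.60, 5.91 and 5.89. Metastasis 1 was again highest, but bladder tumor 6, not metastasis 2, was lowest. Metastasis minus tumor was 0.21 (SE 0.23) with all arrays and -0.08 without metastasis 1. In treated bladder, H2-Aa averaged 5.78 ± 0.17 (SD, n = 3), against 5.87 ± 0.34 in bladder tumor (n = 7) and 5.90 ± 0.20 in control bladder (n = 5). Treated bladder minus tumor was -0.10 (SE 0.25, interval -0.62 to 0.43, limma adjusted p = 1).

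The loading factor genes had small differences. H2-DMa reached 5.59 in metastasis 1, against 4.88 to 4.99 in the other 3 metastases, and the group averaged 5.10 ± 0.33 (SD, n = 4) against 5.17 ± 0.21 in tumor (n = 7). H2-DMb1 and H2-DMb2 were also highest in metastasis 1, at 6.41 and 6.27. Their differences over the 5 comparisons ran from -0.05 to 0.14 for H2-DMb1 and from -0.08 to 0.05 for H2-DMb2. H2-Oa differed by 0.24 in metastasis minus control (SE 0.19, limma adjusted p = 0.806), and H2-Ob by at most 0.09 in size.

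The E beta genes gave the only unadjusted p under 0.05 among class II members, and in opposite directions. H2-Eb1 read 5.51, 5.20, 5.48 and 5.52 in metastasis, against 4.86, 5.11 and 5.50 (lowest, median, highest) in bladder tumor. Metastasis minus tumor was 0.25 (SE 0.12, unadjusted p = 0.0454, limma adjusted p = 0.825). H2-Eb2 read 4.44, 4.53, 4.34 and 4.42 in metastasis, against 4.29, 4.79 and 4.99 in bladder tumor. Its difference was -0.27 (SE 0.12, unadjusted p = 0.0422, limma adjusted p = 0.825). Both lie below the chemosensory level, and their groups overlap. The E alpha gene is a pseudogene in both the b and q haplotypes and is listed as H2-Ea-ps; its range was 4.74 to 5.77, the highest in metastasis 1.

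Over the 12 class II members, 5 had a higher mean in treated bladder than in tumor (median -0.02), 7 in metastasis than in tumor (median 0.08), 7 in metastasis than in control bladder (median 0.07) and 7 in tumor than in control bladder (median 0.03). In treated bladder minus control it was 6 of 12 (median 0.005). The medians over all genes were -0.002, -0.03, -0.01 and 0.01 in the first 4 comparisons and 0.008 in the last. The shares of all genes with a higher mean were 49.4%, 43.8%, 47.1% and 53% in the first 4 and 52.8% in the last. Metastasis 1 was the highest of the 20 arrays for 6 of the 12, and bladder tumor 6 was the lowest for 5. Bladder tumor 6, high for H2-K1, H2-D1 and Tap1, had 1 of 12 class II members above its mean.

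Cell type markers bear on the class II values, since class II is a gene group of antigen-presenting cells. In bulk tissue, fewer cells of a type and less RNA per cell cannot be told apart. The 9 macrophage markers had a mean level of 6.06 to 6.45 in treated bladder, 7.74 in the treated metastasis, 6.53 to 8.53 in metastasis, 5.83 to 7.13 in bladder tumor and 5.74 to 6.82 in control bladder. All 9 had a higher mean in metastasis than in control bladder (median 0.98, with 8 at an unadjusted p under 0.05 and 0 called by limma). All 9 were also higher than in tumor (median 0.74). Of all genes, 47.1% were higher and 7.12% had an unadjusted p under 0.05 in metastasis minus control. In metastasis minus tumor 43.8% were higher. Metastasis 1 and metastasis 2 both had 9 of 9 markers above their mean, at 8.53 and 7.77. Metastasis 3 and 4 had 3 and 2 of 9, at 6.53 and 6.56, within the range of control bladder. Of the 12 class II members, metastasis 1 and 2 had 7 and 1 above their mean. H2-Ab1 thus read 8.60 in metastasis 1 and 6.29 in metastasis 2, while Csf1r, the receptor that defines macrophages, read 7.03 and 6.79. B cell markers had a mean level of 4.91 to 5.24 in treated bladder, 5.11 in the treated metastasis, 4.89 to 5.11 in metastasis, 4.87 to 5.49 in tumor and 4.98 to 5.17 in control bladder. Dendritic cell markers read 5.28 to 5.53, 5.15, 5.22 to 5.44, 5.20 to 5.46 and 5.34 to 5.45 in the same groups. T and NK cell markers, 10 genes of the cells that class I and II address, had a mean level of 5.14 to 5.46 in treated bladder, 5.13 in the treated metastasis, 5.06 to 5.40 in metastasis, 5.14 to 5.43 in tumor and 5.10 to 5.46 in control bladder. These list means lie below the chemosensory level, as do the means of most of the genes; the exceptions are Ccr7 and Cd209a among the dendritic cell markers and Cd3g among the T cell markers. The part of any of these cells in the class II values was not tested.

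B2m had the widest range of all members, and one of the widest of the array. It read 10.22, 15.35 and 11.42 in treated bladder, 15.77 in the treated metastasis, and 14.59, 14.20, 13.56 and 13.13 in metastasis. Bladder tumor gave 8.79, 11.86 and 14.46 (lowest, median, highest) and control bladder 13.90, 13.98, 11.65, 11.58 and 11.77. Its range of 6.98 ranks 19 among 30142 genes, whose median range is 0.98. Control bladder split into the 2 arrays with high Xist, 13.90 and 13.98, and the near-mean arrays at 11.58 to 11.77. In 284 rows of the table some values exceed 16, the log2 ceiling of a 16-bit scan, so the scale of the brightest rows is uncertain; no B2m value exceeds 16.

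B2m averaged 12.33 ± 2.68 in treated bladder (SD, n = 3), 13.87 ± 0.65 in metastasis (n = 4), 12.22 ± 2.05 in bladder tumor (n = 7) and 12.58 ± 1.25 in control bladder (n = 5). Metastasis minus tumor was 1.64 (SE 1.02, interval -0.49 to 3.78, limma adjusted p = 0.844). Treated bladder minus tumor was 0.10 (SE 1.12, interval -2.25 to 2.46, limma adjusted p = 1). It was -1.40 without treated bladder 2 and 1.16 without treated bladder 1.

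**Figure D3:**
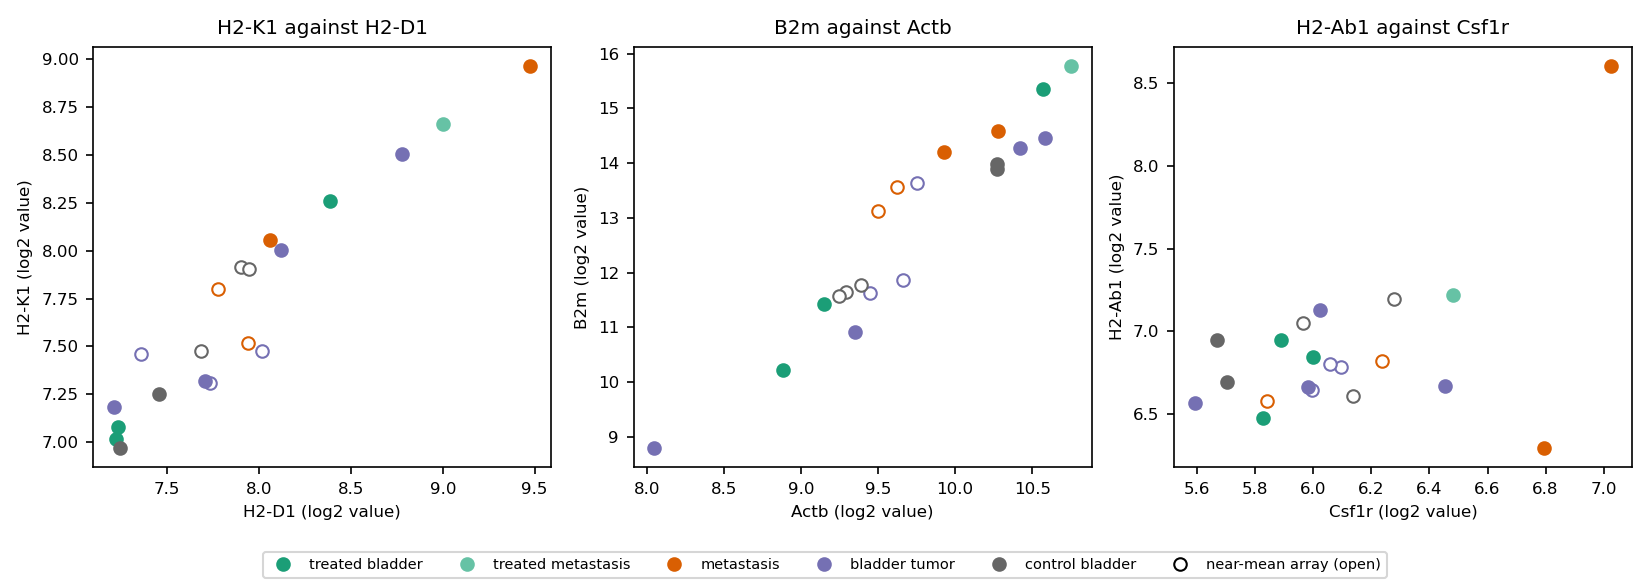
H2-K1 against H2-D1, B2m against Actb and H2-Ab1 against Csf1r, each as log2 values on both axes. Each point is an array, coloured by group, and open points are the 8 near-mean arrays. B2m rises with Actb in one band over the 20 arrays, while H2-Ab1 in metastasis 1 and metastasis 2 lies at opposite ends for similar Csf1r.

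Pairs of members were compared across arrays within each set, 10 pairs in 2 sets, with permutation p adjusted over 20 tests. The 2 sets were defined by whether arrays deviate together over all genes. Whether higher correlations in the 12 than in the 8 follow from that choice was not tested. Arrays that deviate together are also not exchangeable, as a permutation p takes them to be. In the 12 arrays H2-K1 and H2-D1 gave r = 0.984 and rho = 0.93 (permutation p = 1e-05, the smallest that permutations can give, adjusted 0.0002). Without the 2 farthest arrays r was 0.979. In the 8 near-mean arrays r was 0.381 (permutation p = 0.366). B2m with Actb, a pair added after the values were seen, gave r = 0.974 and rho = 0.93 in the 12 and r = 0.724 and rho = 0.857 in the 8. Because the pair was chosen with its values known, no p is given for it. H2-K1 with B2m gave r = 0.585 and rho = 0.769 (adjusted permutation p 0.126 and 0.0263), and -0.309 in the 8. H2-K1 with Actb, also added after the values were seen, gave r = 0.542 and rho = 0.706. B2m thus tracked a cytoskeletal gene across arrays more closely than it tracked the heavy chain it pairs with; the difference between these correlations was not tested.

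H2-Ab1 with H2-Aa gave r = 0.876 (adjusted permutation p = 0.002) and rho = 0.769 in the 12 arrays, 0.732 without metastasis 1 and 2, and -0.012 in the 8. H2-Ab1 with Ciita gave r = 0.745 and rho = 0.455, but r = 0.114 without metastasis 1 and 2, so the relation rests on these arrays. H2-Ab1 with H2-K1 gave r = 0.59 (adjusted permutation p = 0.0655), with Csf1r r = 0.512 (0.172) and with Cd79a, a B cell marker, r = -0.173 (0.754). Psmb8 with Psmb9 gave r = 0.727 and rho = 0.748 (adjusted permutation p 0.0424 and 0.027) and 0.147 in the 8 arrays. The 12 arrays hold all groups, so groups and arrays cannot be told apart in these values.

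Of the transporter and loading genes, Tap1 and Tapbp had the same 4 highest arrays as the class I heavy chains, and Tap2 did not. Tap1 read 5.69, 6.20 and 5.79 in treated bladder, 6.34 in the treated metastasis, and 6.51, 6.01, 5.88 and 6.02 in metastasis. Bladder tumor gave 5.75, 6.00 and 6.57 (lowest, median, highest), and control bladder 5.76, 5.77, 5.91, 5.73 and 6.00. The highest 4 arrays were bladder tumor 6, metastasis 1, the treated metastasis and treated bladder 2, as for H2-K1. They were also the 4 highest for the chaperone genes Canx and Pdia3, which are not members. The same 4 arrays had the lowest chemosensory means, 4.63 to 4.78, so the pattern is not particular to class I genes. The part of this array-wide level was not tested. Tap1 differed by 0.27 in metastasis minus control (SE 0.16, interval -0.06 to 0.61, limma adjusted p = 0.738), by 0.20 in tumor minus control (SE 0.14) and by -0.13 in treated bladder minus tumor (SE 0.16). Without metastasis 1 its metastasis minus control difference was 0.139.

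Tapbp read 6.29, 6.80 and 6.32 in treated bladder, 7.14 in the treated metastasis, 7.32, 6.74, 6.67 and 6.38 in metastasis, 6.26, 6.47 and 7.04 in tumor (lowest, median, highest) and 6.44 to 6.77 in control bladder. Its metastasis minus control difference was 0.19 (SE 0.18), and 0.004 without metastasis 1. Tap2, the partner of Tap1 in the transporter, was highest in bladder tumor 2, at 5.77, and differed by at most 0.12 in size in the 5 comparisons, and Erap1 by -0.21 in treated bladder minus control (SE 0.19) and by less in the other 4.

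The immunoproteasome subunits had narrow ranges. Psmb8 spanned 5.52 to 6.17, Psmb9 5.29 to 5.80 and Psmb10 5.64 to 6.19 over the 20 arrays. In treated bladder minus tumor the differences were -0.11 (SE 0.13), -0.15 (SE 0.11) and -0.13 (SE 0.13) for Psmb8, Psmb9 and Psmb10. In metastasis minus tumor they were -0.12, -0.11 and -0.11, and in tumor minus control 0.10, 0.12 and 0.09. All limma adjusted p were 0.882 or above. Ciita spanned 4.59 to 5.31, with bladder tumor 6 lowest and metastasis 1 highest, as for H2-DMb1; its row lies below the chemosensory level.

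Of the 9 processing members, 2 had a higher mean in treated bladder than in tumor (median -0.11), 3 in treated bladder than in control bladder (-0.04), 4 in metastasis than in tumor (-0.01), 6 in metastasis than in control bladder (0.01) and 5 in tumor than in control bladder (0.10). The shares of all genes with a higher mean were 49.4%, 52.8%, 43.8%, 47.1% and 53% in the same order. The medians over all genes were -0.002, 0.008, -0.026, -0.013 and 0.011. No processing member had an unadjusted p under 0.05 in any of the 5 comparisons.

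**Figure D4:**
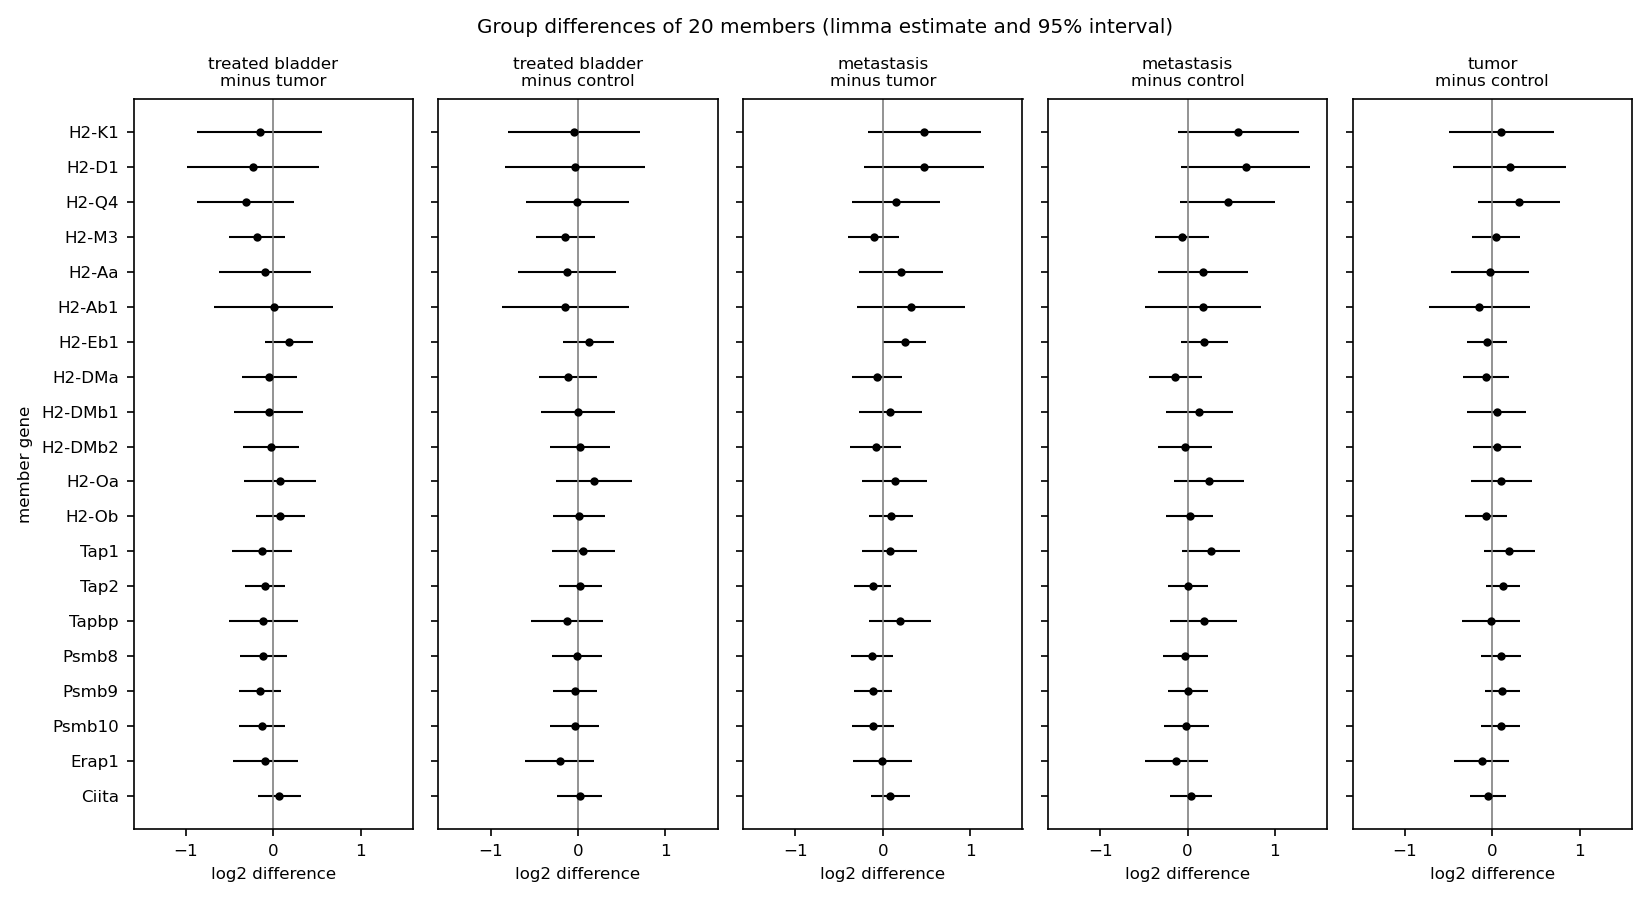
Log2 differences (horizontal axis) of 20 members (rows) in 5 comparisons, as limma estimates with 95% intervals; B2m is left out because its intervals are several times wider. Of the rows drawn, 1 interval leaves out 0, that of H2-Eb1 in metastasis minus tumor.

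The single treated metastasis could not be tested. It lay above every control bladder for 16 of 46 members, against 18.8% of all genes, above every metastasis for 8 (14.4% of all genes) and above every bladder tumor for 10 (8.17%). It lay below every control bladder for 6 members (24.5% of all genes), below every metastasis for 5 (19.1%) and below every bladder tumor for 2 (14.5%). By class, 8 of 24 class I, 2 of 12 class II and 6 of 9 processing members lay above every control. H2-K1 read 8.66 against 7.92 in the highest control, H2-D1 9.002 against 7.95, Tapbp 7.14 against 6.77 and Psmb9 5.80 against 5.67. Against the untreated metastases H2-K1, H2-D1 and H2-Ab1 were within the range, and B2m, Psmb8, Psmb9 and Tap2 were above it. Of the macrophage markers, 9 of 9 were above their mean in this array. It also had the lowest chemosensory mean, 4.63, and the highest Actb value, 10.75, of all arrays. Outside the members, 5 of 5 peptide loading chaperones and 10 of 11 regulators were above their mean, and 0 of 7 dendritic cell markers. The counts above are therefore not particular to the members, and the part of this array-wide level in them was not tested.

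Other genes of the pathway did not pass either. Of 11 regulators measured (interferon gamma, its receptor chains, Jak and Irf genes and the Rfx factors), 0 passed in any comparison. A higher mean in treated bladder than in tumor was seen in 1 of the 11 (median -0.10), against 49.4% of all genes. Irf8, a factor of myeloid and B cells, averaged 6.34 ± 0.18 in metastasis (n = 4), against 5.91 ± 0.02 in control bladder (n = 5, SD), and these groups did not overlap. The difference was 0.43 (SE 0.10, unadjusted p = 0.000621, limma adjusted p = 0.627). Ifng itself read 4.28, 4.40, 4.22 and 4.14 in metastasis, against 4.81, 4.43, 4.54, 4.64 and 5.32 in control bladder, also with no overlap. Its difference was -0.49 (SE 0.18, unadjusted p = 0.0139, limma adjusted p = 0.676), and all these values lie below the chemosensory level. The gap between these Ifng groups was narrow, 4.40 to 4.43. In metastasis minus control, 2 of the 11 regulators and 2.95% of all genes had no overlap. Irf1, which interferon gamma induces, had differences of -0.10 to 0.05 over the 5 comparisons. Irf2, a repressor of interferon targets, averaged 6.66 ± 0.15 in treated bladder (n = 3), against 6.99 ± 0.16 in control bladder (n = 5, SD), with no overlap. The gap was narrow, from 6.789 in the highest treated bladder to 6.794 in the lowest control bladder. The difference was -0.33 (SE 0.19, limma adjusted p = 1), and Ifng differed by -0.32 in the same comparison. Irf8 did not overlap there either, with a difference of 0.14 (SE 0.11, limma adjusted p = 1), and 1.19% of all genes had no overlap in that comparison.

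Of the class II partners, 6 were measured: the proteases Ctss, Ctsl, Lgmn and Sppl2a, the thiol reductase Ifi30, and Marchf1, a ubiquitin ligase that lowers surface class II. All 6 had a higher mean in metastasis than in control bladder (median 1.19, 4 at an unadjusted p under 0.05, 0 called by limma). All 6 were also higher than in tumor (median 0.94). Of all genes, 47.1% were higher and 7.12% had an unadjusted p under 0.05 in metastasis minus control. In metastasis minus tumor 43.8% were higher. Ctss, the protease of invariant chain removal, averaged 6.99 ± 1.25 in metastasis (n = 4), against 5.61 ± 0.81 in control bladder (n = 5, SD), a difference of 1.39 (SE 0.49, limma adjusted p = 0.676). Ctsl differed by 1.17 in metastasis minus tumor (SE 0.44, limma adjusted p = 0.825). Ctss read 8.17 and 7.97 in metastasis 1 and 2, which both have macrophage markers above the mean, and 5.86 and 5.97 in metastasis 3 and 4. The class II chain genes did not share this, since H2-Ab1 was lowest in metastasis 2.

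Of 5 peptide loading chaperones and 5 constitutive proteasome or activator genes, 0 passed. All 5 of each list had a lower mean in treated bladder than in tumor, with medians of -0.29 and -0.19, against 49.4% of all genes higher. All 5 of each had a higher mean in tumor than in control bladder (medians 0.13 and 0.09), against 53% of all genes. Psmb6, a constitutive subunit that Psmb9 replaces, differed by 0.29 in tumor minus control (SE 0.16) and by -0.30 in treated bladder minus tumor (SE 0.19). Of 8 class I-like genes outside the H2 names, Mr1, which presents vitamin B2 metabolites, averaged 5.90 ± 0.43 in tumor (n = 7), against 6.44 ± 0.48 in control bladder (n = 5, SD). The difference was -0.54 (SE 0.21, unadjusted p = 0.0172, limma adjusted p = 0.999).

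Without the 8 near-mean arrays, which leaves 3 treated bladders, 2 metastases, 4 tumors and 2 control bladders, metastasis minus control was 1.40 for H2-K1 (SE 0.53, limma adjusted p = 0.591) and 1.42 for H2-D1 (SE 0.59, limma adjusted p = 0.634). Over all arrays these differences were 0.58 and 0.67. Tumor minus control was 0.64 for H2-K1 (SE 0.46) and 0.60 for H2-D1 (SE 0.51). Treated bladder minus tumor was -0.30 for H2-K1 and -0.34 for H2-D1, and 0.00 for H2-Ab1. B2m, the partner of the heavy chains, differed by 0.45 in metastasis minus control (SE 1.94), against 1.29 over all arrays, and by -1.83 in tumor minus control (SE 1.68), against -0.35. No member was called. Both control bladders of this comparison are those with high Xist, so animal differences and group cannot be told apart there.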

How the data were processed

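RNA of 20 samples was measured on arrays. The authors deposited log2 values, made by RMA in Expression Console (Affymetrix), as listed per the submitters' processing notes, which give neither versions nor settings here. RMA equalises arrays, so overall RNA amount is lost. Scanner intensities were not used here, so signal over background is unknown, and precision is limited by how many arrays there are. Of 65956 rows, 30604 had 1 symbol in the platform annotation, 2146 had several and 33206 had none. Of several rows of a gene (355 genes) the one with the highest mean was used, which left 30142 genes.

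Groups came from the labels. limma 3.58.1 (R 4.3.3) fitted the 19 arrays of the 4 replicated groups with a shared spread and no covariate. p-values were adjusted by Benjamini-Hochberg over all genes in each of 5 comparisons, and adjusted p under 0.05 counted as a call. Intervals are 95% limma intervals. Correlations used Python 3.11.15, SciPy 1.17.1 and 100000 permutations. The fit was tested on simulated data. The members, gene lists and tests were chosen with earlier results of these data known. Members named were the main genes of each class and, in each comparison, those with the largest and smallest difference and the smallest p. Pathway genes named were the 2 with the smallest p in each comparison, and Irf1. Actb, Csf1r and Xist were chosen after their values were seen. Same-numbered samples did not deviate together in a regular way, so the numbers were not taken as pairs. Their correlations ran from -0.506 to 0.444, the highest for treated bladder 1 with bladder tumor 1. Other settings tried concerned the samples fitted, array weights, the prior, centring, dim genes, averaged rows, the replicate block and 2 covariates. Listed pathway genes without a row of their own are not analysed here.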

Additional observations from a re-analysis of the deposited data

Results flagged for a closer look

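Single arrays stood apart within their group for 8 of 138 combinations of member and group (5.8%), a share close to the 1 in 20 that chance gives. H2-D1 read 9.476 in metastasis 1, against 7.78 to 8.06 in the other metastases, and H2-DMa read 5.593 there, against 4.88 to 4.986. H2-Eb1 read 5.204 in metastasis 2, against 5.483 to 5.515. Tap1 read 6.573 in bladder tumor 6, against 5.754 to 6.076 in the other tumors, H2-Ab1 read 7.128 in bladder tumor 2, against 6.565 to 6.803, and H2-Oa read 5.549 in bladder tumor 1, against 4.591 to 4.895. In control bladder, H2-M3 read 5.191 in array 2, against 5.425 to 5.496 in the others, and Psmb9 read 5.672 in array 6, against 5.416 to 5.467. The treated metastasis, a single array that enters no comparison, lay above every control bladder for 16 of 46 members (34.8%, against 18.8% of all genes) and below every control bladder for 6 (24.5% of all genes). This array had the lowest chemosensory mean and the highest Actb value of all arrays, and the part of that in these counts was not tested.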

How the results depend on the processing

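No named member was called in any of 3870 values recomputed under 29 settings. The lowest limma adjusted p among them was 0.204, for H2-K2 in metastasis minus control with array weights (0.41). Of these values 239 had the opposite sign to the one reported, all of them uncalled. Leaving out the 8 near-mean arrays, chosen with earlier results known, gave 1 called gene in tumor minus control, 1 in treated bladder minus control, 4 in metastasis minus tumor and 5 in metastasis minus control. The class I median was then 0.148 in tumor minus control and 0.094 in treated bladder minus control. Array weights gave 2 calls in metastasis minus tumor, dropping dim genes 2, and the chemosensory mean as a covariate, also added after values were seen, 1 there and 3 in metastasis minus control. The 2 groups alone gave 1 call in metastasis minus control. Without dim genes the class I median was 0.152 in metastasis minus tumor and 0.315 in metastasis minus control, over fewer members. Leaving out single arrays gave 0 to 2 calls in metastasis minus tumor (2 without control bladder 5 or without bladder tumor 6) and 0 to 1 in metastasis minus control (1 without bladder tumor 1). Over the same settings the class II median in metastasis minus tumor ran from -0.091 (without metastasis 1) to 0.155. No called gene was a named member, and the cause of these calls was not tested. With the replicate number as a block, 0 genes were called in each comparison, and class I medians were 0.062 in tumor minus control and -0.055 in treated bladder minus tumor.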
